A study of Mus musculus with 2 samples.

Results

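Hepatic stellate cells (HSCs) with the highest combined expression of Tgfbi, Fcna, G0s2 and Qpct were examined. Barcodes were kept with at most 5% mitochondrial UMIs, 2000 to 7000 genes, at most 50000 UMIs, and at least 15 UMIs per 10000 from the stellate genes Lrat, Ecm1, Hgf and Reln. Each cell was scored by the mean of the natural log of 1 plus the count per 10000 over the 4 genes, and the top 10% by score within each library were taken. These score-high cells numbered 809 of 8092 gated cells in the p16-LRTD library and 683 of 6837 in the p16-Alb-LRTD library, 1492 of 14929 in all. The files held 19955 barcodes, of which 16420 passed the quality limits. Because the 4 genes chose the cells, their own excess there is a description and not a result.

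The cells came from livers of male mice given CCl4 for 4 weeks, tamoxifen and diphtheria toxin, in both genotypes. The p16-LRTD mice carried p16-CreERT2, a tamoxifen-inducible Cre driven by the p16 promoter, together with R26-CAG-LSL-RSR-tdTomato-2A-DTR, a Rosa26 cassette for the tdTomato reporter and the diphtheria toxin receptor behind a lox-flanked and a rox-flanked stop. The p16-Alb-LRTD mice carried in addition Alb-DreERT2, an inducible Dre recombinase under the hepatocyte promoter Alb, so that the receptor is placed on p16-high hepatocytes, which the toxin then targets. There was 1 library per genotype, and the age and number of mice behind each are not given in the sources used here. Each difference between genotypes is therefore between 2 libraries, without a replicate check, and all intervals are 95% intervals for counting error only.

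HSCs are the vitamin A-storing pericytes of the liver sinusoid, and on injury they become the main source of fibrillar collagen. Tgfbi encodes a secreted matrix adaptor protein that is induced by TGF-beta and binds collagens and integrins. Fcna encodes ficolin A, a soluble recognition lectin that binds microbial sugars and starts the lectin pathway of complement. G0s2 encodes an inhibitor of adipose triglyceride lipase, which restrains the breakdown of lipid droplets, and Qpct encodes glutaminyl cyclase, which forms pyroglutamate at the ends of secreted peptides and chemokines.

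The stretches before 3 of the rule genes are shown because these genes define the cells, and those before Lcn8 and Bmyc because both lie close to Fcna and were higher in score-high cells of both libraries. They are RefSeq sequences of build GRCm38.p6 (mm10), taken from the 250 bases before each RefSeq start, less any base inside the gene as GENCODE vM21 draws it. Capitals mark matches to 4 motifs searched on both strands: the E-box CAGCTG, the GATA motif AGATAA, the homeodomain motif TAATTA and the TATA box TATAAA.
Fcna, chr2:25628031-25628224, minus strand, 194 bases: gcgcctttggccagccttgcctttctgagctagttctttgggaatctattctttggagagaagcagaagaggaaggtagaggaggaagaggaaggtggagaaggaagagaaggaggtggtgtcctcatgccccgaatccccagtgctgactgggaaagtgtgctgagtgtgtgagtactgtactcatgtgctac
Lcn8, chr2:25652868-25653117, plus strand, 250 bases: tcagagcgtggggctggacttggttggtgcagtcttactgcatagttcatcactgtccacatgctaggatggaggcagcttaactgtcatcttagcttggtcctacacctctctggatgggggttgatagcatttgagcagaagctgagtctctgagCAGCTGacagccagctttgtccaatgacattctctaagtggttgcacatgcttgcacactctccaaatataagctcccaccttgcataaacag
Bmyc, chr2:25706629-25706738, plus strand, 110 bases: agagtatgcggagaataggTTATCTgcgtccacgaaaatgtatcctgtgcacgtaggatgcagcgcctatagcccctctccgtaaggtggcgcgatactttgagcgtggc
Tgfbi, chr13:56609336-56609522, plus strand, 187 bases: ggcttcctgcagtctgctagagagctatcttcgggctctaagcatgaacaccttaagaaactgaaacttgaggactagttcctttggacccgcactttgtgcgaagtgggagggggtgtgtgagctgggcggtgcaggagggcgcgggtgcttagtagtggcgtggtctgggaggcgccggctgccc
G0s2, chr1:193273218-193273438, minus strand, 221 bases: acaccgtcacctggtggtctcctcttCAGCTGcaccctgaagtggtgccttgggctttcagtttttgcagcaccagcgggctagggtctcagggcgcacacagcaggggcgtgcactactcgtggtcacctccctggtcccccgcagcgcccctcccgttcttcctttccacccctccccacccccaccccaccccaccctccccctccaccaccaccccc
G0s2 and Lcn8 held CAGCTG, at 224 and 93 bases before the RefSeq start, and Bmyc held AGATAA on the other strand at 231 bases. Of 32851 RefSeq windows of the same 250 bases, 13.001% held CAGCTG, 9.99% AGATAA, 4.84% TAATTA and 12.4% TATAAA. The windows of Fcna and Tgfbi held none of the 4 words. A match describes letters and is not a binding site.

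The score formed a single continuous range without a gap at the boundary. The lowest score of a score-high cell was 2.20 in p16-LRTD and 2.44 in p16-Alb-LRTD, and the highest score among the other cells was the same to 2 decimals. Within 0.05 of the boundary lay 180 cells inside and 212 outside in p16-LRTD, and 163 inside and 193 outside in p16-Alb-LRTD. The 50 cells just inside had a median Fcna of 17.8 per 10000 and the 50 just outside 16.3 in p16-LRTD, against 21.3 and 27.1 in p16-Alb-LRTD. The score-high cells are thus a range of expression and not a separate type. All gated cells of p16-Alb-LRTD sat higher, with a median score of 1.99 against 1.70. With a single boundary over both libraries, 1114 cells of p16-Alb-LRTD (16.3%, 15.4 to 17.2) but 378 of p16-LRTD (4.67%, 4.22 to 5.15) would have been taken.

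**Figure D1:**
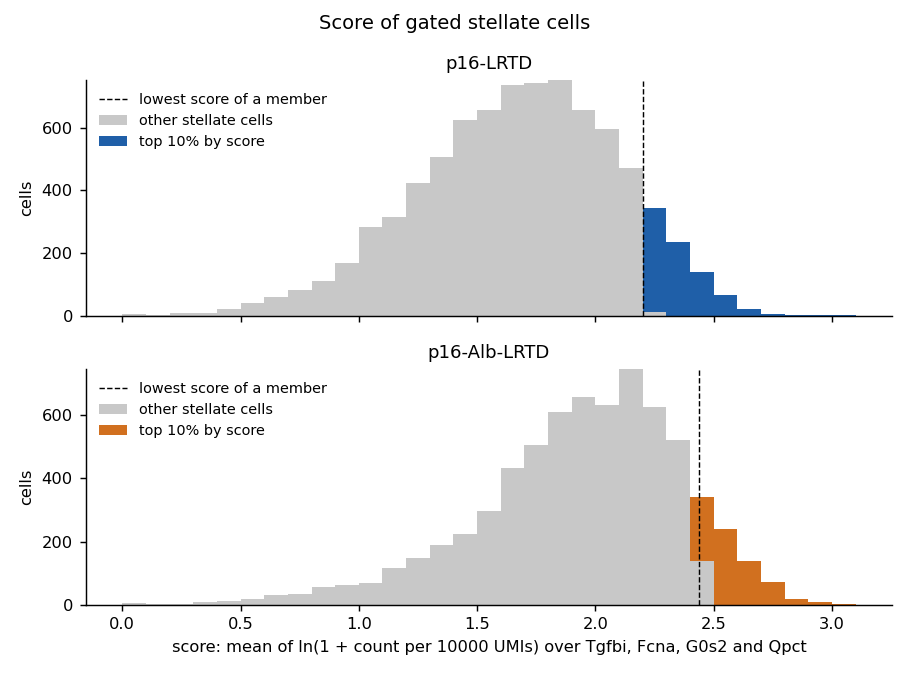
Number of gated stellate cells by score (x axis, mean of ln(1 + count per 10000 UMIs) over Tgfbi, Fcna, G0s2 and Qpct, bins of 0.1), with the top 10% in colour and the other cells in grey. In both libraries the coloured cells are the upper end of a single range, which begins at 2.20 in p16-LRTD and at 2.44 in p16-Alb-LRTD.

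Levels are given as CPM, a gene's counts summed over the cells of a group, per 1000000 counts. Tgfbi stood at 2271 CPM in score-high and 1192 in other cells of p16-LRTD, and at 2473 and 1645 in p16-Alb-LRTD. Fcna stood at 2267 against 697 CPM and at 3133 against 1237. G0s2 stood at 968 against 602 CPM and at 1346 against 696, and Qpct, the least abundant, at 185 against 84.0 and at 227 against 91.1. Every score-high cell had at least 1 UMI of Tgfbi, Fcna and G0s2, and 93.3% and 97.4% had a UMI of Qpct. The genes were also present in most of the other cells: Fcna was seen in 94.6% and 97.5% of them, and Qpct in 59.0% and 67.7%. After each cell was thinned to 5000 UMIs, Fcna was seen in 80.7% (79.8 to 81.6) and 89.96% (89.2 to 90.7) of the other cells.

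Levels in other cell types were read from barcodes outside the stellate gate. Those with at least 15 UMIs per 10000 from the Kupffer cell genes Clec4f, Vsig4, Cd5l and C1qa (306 and 194 cells) had Fcna at 677 CPM (657 to 697) in p16-LRTD and 790 (766 to 815) in p16-Alb-LRTD, beside 697 and 1237 CPM in the other stellate cells of the same libraries. Those with as many from the endothelial genes Stab2, Clec4g, Oit3 and Kdr (420 and 276 cells) had Fcna at 12.4 and 22.8 CPM. Tgfbi reached 130 and 125 CPM in the Kupffer-marker cells and 20.9 and 18.7 in the endothelial-marker cells. G0s2 was at or below 14.3 CPM in all 4 of these groups, and Qpct at 4.14 and 2.63 CPM in Kupffer-marker and 33.2 and 34.9 in endothelial-marker cells.

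How far the 4 genes go together was described by leaving each out of the score and by rank correlations. The cells and their 4 genes were chosen with earlier results of these data known, so neither is an independent test. When a gene was left out of the score and measured in the cells chosen by the other 3, all 4 were higher in both libraries. Tgfbi was higher by a log2 ratio of 0.66 (0.64 to 0.68) in p16-LRTD and 0.44 (0.42 to 0.46) in p16-Alb-LRTD, and Fcna by 0.52 (0.50 to 0.55) and 0.47 (0.45 to 0.49). Qpct was higher by 0.37 (0.29 to 0.45) and 0.45 (0.38 to 0.53). G0s2 followed the other 3 least, at 0.15 (0.12 to 0.18) and 0.33 (0.30 to 0.35). Stellate genes outside the score, measured in cells chosen by all 4 genes, also differed. Log2 ratios were 0.69 and 0.58 for Ecm1, 0.23 and 0.21 for Lrat, 0.13 and 0.01 for Reln, and 0.07 and -0.09 for Hgf. The median of 24 stellate identity genes was 0.17 and 0.14. Whether the 4 genes rise together beyond stellate genes in general was not tested. Across single cells the strongest rank correlation was that of Tgfbi with Fcna (rho 0.43 over 8076 cells and 0.40 over 6830), followed by Tgfbi with Qpct (0.33 and 0.28). Fcna and Qpct were nearly unrelated, at 0.00 and 0.09. After thinning to 5000 UMIs the correlation of Tgfbi with Fcna was 0.35 and 0.31, and all pairs share the depth of their cell.

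To see how stable the choice of cells is, the UMIs of each cell were divided at random into 2 equal parts. Cells chosen on the first part were chosen again on the second in 48.7% of cases in p16-LRTD (394 of 809, 45.2 to 52.2) and 48.5% in p16-Alb-LRTD (331 of 683, 44.7 to 52.3), where 10% of the cells are taken each time. Over 20 such divisions the share averaged 51.7% (SD 1.18) and 50.5% (SD 0.772). In the part not used for the choice, Fcna remained higher by a log2 ratio of 1.49 (1.46 to 1.52) and 1.24 (1.21 to 1.26), Tgfbi by 0.82 and 0.52, G0s2 by 0.52 and 0.78, and Qpct by 0.73 and 0.79. Membership of a single cell is therefore loose. Each gene took part in choosing the cells, so its excess in the other part of their UMIs follows from that choice. It does not show that the 4 genes go together.

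The score-high cells also lay near each other in the rest of the transcriptome. Among the 30 nearest neighbours of a score-high cell, in components of 2000 variable genes without the rule and gate genes, 31.1% were score-high in p16-LRTD and 28.6% in p16-Alb-LRTD. For the other cells the share was 8.44% and 9.38%, and score-high cells make up 10.0% of all. At most 10% of the neighbours were score-high for 116 of 809 and 104 of 683 of them. The neighbours of score-high cells were thus mostly other stellate cells.

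Outside the rule, few genes were higher in score-high cells. Of 6994 genes with at least 20 CPM in a group and not used by the rule or the gate, 27 (0.386%) were at least 1.5-fold higher in p16-LRTD, 9 (0.129%) in p16-Alb-LRTD, and 7 (0.1%) in both. The 7 were Nrtn, Hhip, Lcn8, Apoc1, Adm, Shisa2 and Bmyc. Median log2 ratios over all tested genes were -0.04 and -0.06.

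Nrtn encodes neurturin, a growth factor of the GDNF family. It stood at 28.5 CPM (25.7 to 31.5) in score-high and 14.4 (13.8 to 15.1) in other cells of p16-LRTD, and at 41.7 (38.0 to 45.5) and 20.7 (19.9 to 21.5) in p16-Alb-LRTD. Its log2 ratios of 0.98 and 1.01 were the most alike of the 7 between libraries.

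Hhip encodes a membrane protein that captures Hedgehog ligands and dampens their signal. It stood at 241 against 101 CPM in p16-LRTD and at 247 against 136 in p16-Alb-LRTD, log2 ratios of 1.25 (1.19 to 1.30) and 0.87 (0.81 to 0.92). Score-high cells of both libraries had nearly the same Hhip level, while the other cells of p16-Alb-LRTD had more than those of p16-LRTD. Score-high cells began at a score of 2.20 in p16-LRTD and 2.44 in p16-Alb-LRTD, so the sets compared lie at different parts of the score range.

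Lcn8, a lipocalin best known from the epididymis, stood at 63.3 against 28.3 CPM and at 100.03 against 61.0, log2 ratios of 1.16 (1.05 to 1.27) and 0.71 (0.62 to 0.80). It had 0.307 and 0.608 CPM in the Kupffer-marker cells and 0.664 and 1.54 in the endothelial-marker cells. Lcn8 was higher in the other cells of p16-Alb-LRTD than of p16-LRTD by a log2 ratio of 1.11 (1.05 to 1.17).

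Apoc1, an apolipoprotein of lipoprotein particles, stood at 373 against 205 CPM and at 352 against 218. Kupffer-marker cells had 1202 and 1864 CPM of it. The summed level of all 16 Kupffer markers was lower in score-high than in other cells, at 94.4 against 218 CPM in p16-LRTD and 66.6 against 120.03 in p16-Alb-LRTD.

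Adm encodes adrenomedullin, a peptide that widens vessels, and stood at 164 against 92.98 CPM and at 239 against 153. Shisa2, which modulates receptors of Wnt and FGF signalling, stood at 59.2 against 38.6 CPM and at 59.7 against 37.2. Bmyc, a short relative of Myc, stood at 450.4 against 283 CPM and at 416 against 275. Their log2 ratios were 0.82 and 0.65 for Adm, 0.61 and 0.69 for Shisa2, and 0.67 and 0.60 for Bmyc. Shisa2 was past 1.5-fold in 12 of 18 alternatives in p16-LRTD and 15 of 18 in p16-Alb-LRTD, and Adm in 17 and 15. Hhip, Nrtn, Lcn8 and Shisa2 were at or below 1.82 CPM in Kupffer-marker and endothelial-marker cells of both libraries, whereas Adm reached 46.4 and 62.6 CPM and Bmyc 24.9 and 19.8 CPM in endothelial-marker cells.

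**Figure D2:**
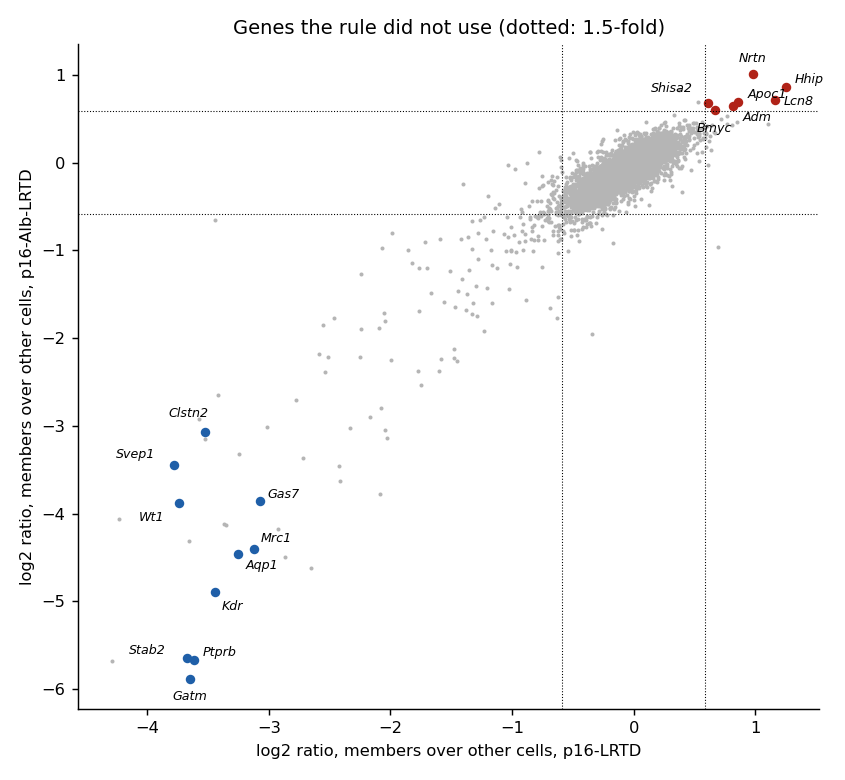
Log2 ratio of summed CPM, score-high over other stellate cells, in p16-LRTD (x axis) and p16-Alb-LRTD (y axis) for the tested genes, with at least 20 CPM in a group and not used by the rule or gate (points; genes without counts in a group are not drawn). Red points are the 7 genes at least 1.5-fold higher in both libraries and blue points the 10 named lower genes, from Clstn2 (-3.53 and -3.07) to Gatm (-3.65 and -5.88), while the largest ratio above 0 among these tested genes is that of Hhip in p16-LRTD (1.25) and of Nrtn in p16-Alb-LRTD (1.01).

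All 7 genes had their highest level in decile 10 of both libraries, which largely follows from their choice as genes higher there. Most climbed gradually along the score. From decile 1 to decile 10, Hhip went from 25.1 to 241 CPM in p16-LRTD and from 37.4 to 247 in p16-Alb-LRTD, Apoc1 from 122 to 373 and from 107 to 352, and Bmyc from 169 to 450.4 and from 152 to 416. Not all climbed from the start. Lcn8 fell from 32.5 and 64.8 CPM in decile 1 to 20.4 and 45.8 in decile 2, before it reached 63.3 and 100.03 in decile 10. Adm in p16-Alb-LRTD went from 129 CPM in decile 1 to 109 in decile 2 and 142 in decile 4, and Shisa2 in p16-LRTD stayed between 32.5 and 39.8 CPM over deciles 1 to 6. When only cells above the median score were kept as the comparison, 0 genes were at least 1.5-fold higher in both libraries, and all 7 genes still had ratios above 0. The excess was therefore not a step at the boundary. Median depth over the deciles ranged from 16429 to 18380 UMIs in p16-LRTD and from 16719 to 19378 in p16-Alb-LRTD, and decile 10 had the lowest in each.

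**Figure D3:**
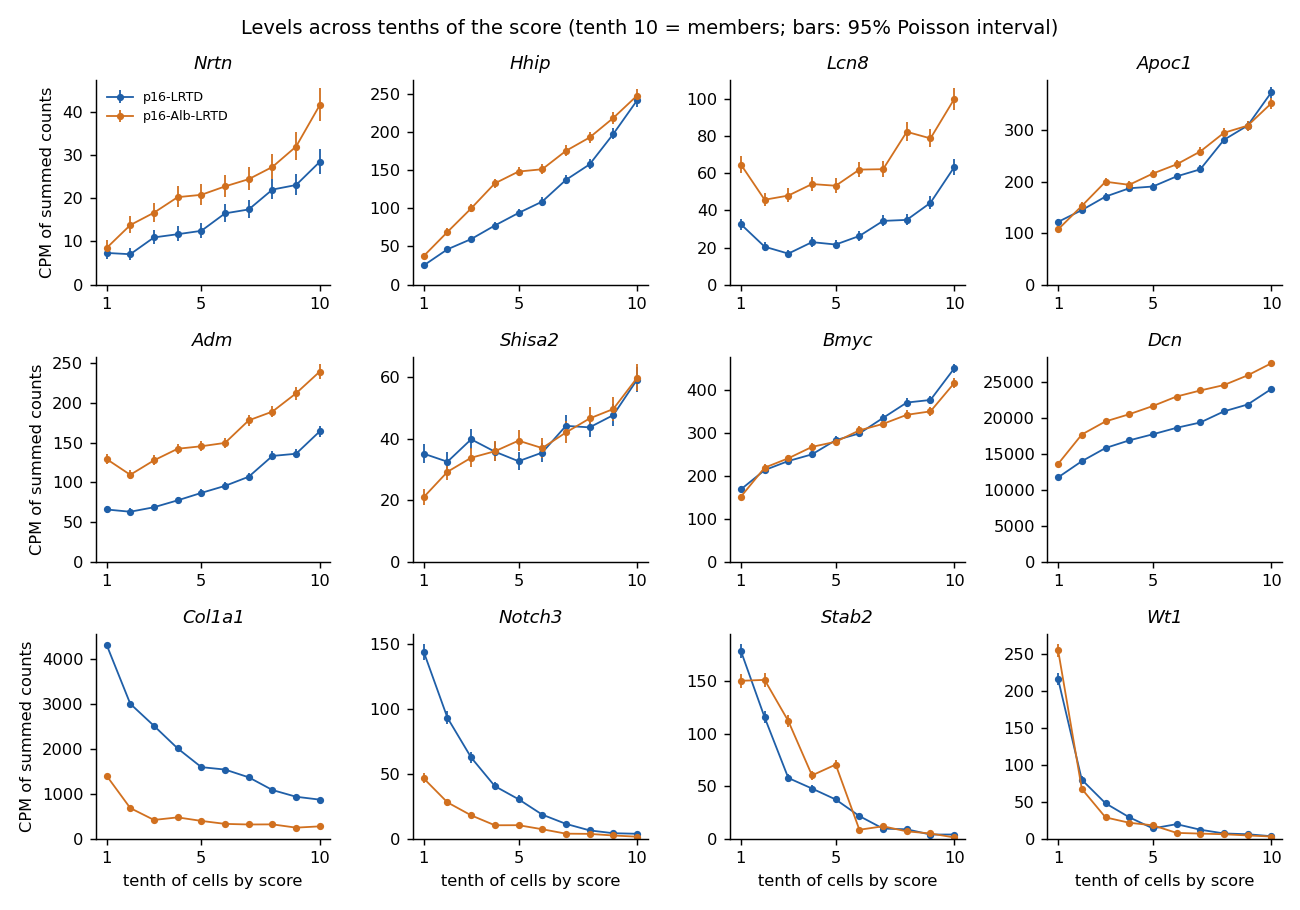
CPM of summed counts (y axis, starting at 0) by score decile (x axis, decile 10 being the score-high cells) for 12 genes in p16-LRTD (blue) and p16-Alb-LRTD (orange), with 95% Poisson intervals. The first 8 genes are highest in decile 10 in both libraries, with Hhip going from 25.1 to 241 CPM in p16-LRTD, while Col1a1, Notch3, Stab2 and Wt1 are highest in decile 1, apart from Stab2 in p16-Alb-LRTD, with 150.4 CPM in decile 1 and 151 in decile 2.

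Among the 7 genes, 2 are neighbours of Fcna on chromosome 2. Fcna lies on the minus strand from 25624666 to 25628030, Lcn8 on the plus strand from 25653120 to 25656217, and Bmyc on the plus strand from 25706739 to 25707721. Their starts are 25.1 and 78.7 kb from that of Fcna. The Bmyc ratio in p16-Alb-LRTD, 0.60 (0.55 to 0.64), was near the limit, and it was past 1.5-fold in 8 of 18 alternatives there (0.34 to 0.70) and in 15 of 18 in p16-LRTD, while Lcn8 was past it in 18 of 18 in p16-LRTD and 15 of 18 in p16-Alb-LRTD. Tmem141, which starts 6.02 kb on the other side, had log2 ratios of 0.66 and 0.35. Rabl6 at 19.5 kb, Phpt1 at 52.8 kb, Edf1 at 70.2 kb and Fbxw5 at 127 kb on that side had ratios of 0.06, 0.11, 0.24 and 0.36 in p16-LRTD and -0.14, 0.07, 0.16 and 0.07 in p16-Alb-LRTD. The lipocalin genes Lcn5 and Lcn6, between Lcn8 and Bmyc, had at most 3.43 CPM in any group. Fcnaos, a transcript annotated on the strand opposite to Fcna, had 17.0 against 11.7 CPM and 19.5 against 15.1. Whether reads of the overlapping genes were shared was not tested.

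**Figure D4:**
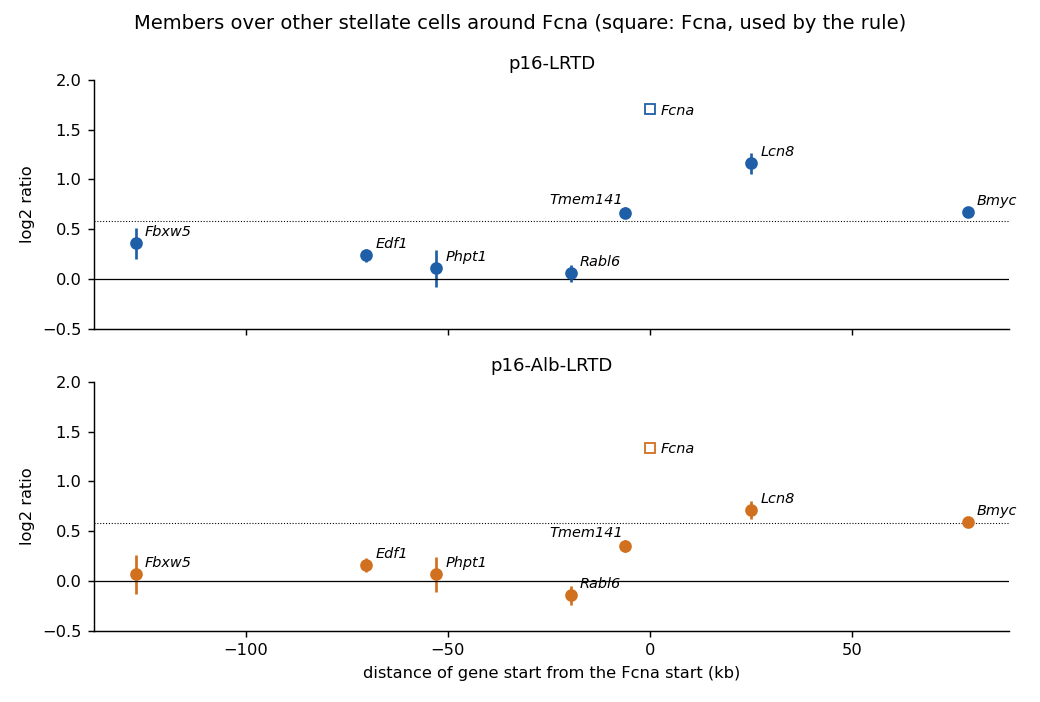
Log2 ratio of CPM, score-high over other stellate cells (y axis), against distance of each gene's start from the Fcna start in kb (x axis), for genes with at least 20 CPM, in p16-LRTD (above) and p16-Alb-LRTD (below), with 95% counting intervals. Lcn8 (1.16 and 0.71) and Bmyc (0.67 and 0.60) lie above the dotted 1.5-fold line in both libraries. Bmyc in p16-Alb-LRTD lies just above it. Fcna itself, an open square, was used by the rule.

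Genes lower in score-high cells were more numerous and their ratios larger. There were 229 (3.27%) at least 1.5-fold lower in p16-LRTD, 215 (3.07%) in p16-Alb-LRTD and 156 (2.23%) in both. A gene could be tested through 20 CPM in only 1 group of 1 library, where it is high. In p16-Alb-LRTD the lower calls thus include Ube2c with 1 UMI in score-high cells (0.0857 against 1.18 CPM) and Cenpf with 2 (0.171 against 1.71). The same limit holds for lower calls in the gene lists below. The 10 lowest at 20 CPM or more in the other cells of both libraries were Wt1, Stab2, Gatm, Ptprb, Svep1, Kdr, Aqp1, Mrc1, Gas7 and Clstn2. Stab2, a scavenger receptor of sinusoidal endothelium, stood at 4.08 against 52.1 CPM in p16-LRTD and at 1.29 against 64.3 in p16-Alb-LRTD. Kdr, the main VEGF receptor, stood at 3.64 against 39.6 and at 1.54 against 45.8. Ptprb, an endothelial phosphatase, had log2 ratios of -3.62 and -5.67, Mrc1, a mannose receptor, -3.12 and -4.41, and the water channel Aqp1 -3.25 and -4.46. Wt1, a transcription factor of mesothelium, stood at 3.50 against 46.7 and at 3.09 against 45.3 CPM. Gatm, an enzyme of creatine synthesis, stood at 1.68 against 21.0 and at 0.343 against 20.2 CPM.

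Some of the lower genes are markers of other cell types. Of 14 endothelial markers, 9 were tested and 8 were lower in each library, beside 3.27% and 3.07% of all genes. Only 1 of them reached 20 CPM in score-high cells of either library. The rest entered the test through the comparison cells, which favours lower calls. The summed level of the 14 markers was 95.6 against 401 CPM in p16-LRTD and 59.7 against 480 in p16-Alb-LRTD. Few of the other cells carried them: 6.30% had a UMI of Stab2 in p16-LRTD and 6.24% in p16-Alb-LRTD, with up to 49.2 and 35.8 UMIs per 10000. Among score-high cells, 3.96% and 2.05% had a UMI of Stab2. Of 7 smooth muscle markers, 3 were tested and 2 were lower in each library (beside 3.27% and 3.07% of all genes), with Notch3 at 3.86 against 44.5 CPM and at 1.63 against 14.4, and Cnn1 at 0 in score-high cells of both. Of 7 mesothelial markers only Wt1 was tested. The 7 summed to 48.9 and 45.8 CPM in the other cells, of which Wt1 alone made up 46.7 and 45.3. Msln, Lrrn4 and Muc16 were at 0 in score-high cells of both libraries, but markers besides Wt1 were near 0 in the other cells too. Wt1 had a UMI in 14.3% and 15.2% of the other cells, and whether it marks mesothelial RNA here was not tested. Of 10 portal fibroblast markers 3 were tested, and Dpt stood at 18.4 against 63.1 CPM and at 5.91 against 30.6. Hepatocyte markers summed to 147 against 144 CPM and to 149 against 138, and no lymphocyte (of 9) or cholangiocyte (of 7) marker reached 20 CPM. Of 12 recruited macrophage markers only Fn1, which HSCs also make, was tested, at 800.4 against 929 and 547 against 611 CPM. When the 10% of gated cells richest in Kupffer, endothelial, hepatocyte and lymphocyte marker RNA were left out, 114 genes were lower and 5 higher in both libraries, and the median log2 ratio of the endothelial markers went from -2.92 to -0.61 in p16-LRTD and from -4.50 to -0.58 in p16-Alb-LRTD. The cells left out were picked by these same markers, so the smaller endothelial medians follow from the removal. The part of mixed barcodes in the lower genes was not tested further.

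Stellate identity genes were present at high levels in score-high cells, and few passed the 1.5-fold limit. The gate genes stood at 1492 against 1271 CPM for Lrat, the retinol-esterifying enzyme of vitamin A storage, and at 4272 against 2656 for Ecm1 in p16-LRTD, with 1696 against 1469 and 4692 against 3149 in p16-Alb-LRTD. Of 24 further identity genes, 2 were higher and 0 lower in p16-LRTD (beside 0.386% and 3.27% of all genes), and 0 higher and 1 (Ngfr) lower in p16-Alb-LRTD (beside 0.129% and 3.07%). Of the 24, 16 and 15 had ratios above 0, with median log2 ratios of 0.17 and 0.14 beside -0.04 and -0.06 over all genes. Rgs5, a regulator of G-protein signalling in pericytes, stood at 3650 against 2145 CPM and at 2654 against 1836, and Lhx2, a transcription factor that restrains stellate activation, at 573 against 382 and at 450.2 against 339. Decorin (Dcn), a collagen-binding proteoglycan, stood at 24055 against 17528 and at 27642 against 21171 CPM. The identity genes Ngfr and Pdgfrb were below the other cells in both libraries, with log2 ratios of -0.57 and -0.62 for Ngfr and -0.51 and -0.34 for Pdgfrb.

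Part of the matrix and contractile genes of activated HSCs were lower in score-high cells. Of 20 activation genes tested, 11 were at least 1.5-fold lower in p16-LRTD and 5 in p16-Alb-LRTD (beside 3.27% and 3.07% of all genes), with 0 higher in either (beside 0.386% and 0.129%), the remaining 9 and 15 within 1.5-fold, and median log2 ratios of -0.68 and -0.26. The medians were -0.12 and -0.08 when Fcna was left out of the score, and -0.26 and -0.10 against the other cells above the median score. Col1a1, a chain of type I collagen, stood at 869 against 2011 CPM and at 276 against 506. Col3a1, the chain of type III collagen, stood at 2612 against 4135 and at 1107 against 1325, and Acta2, smooth muscle actin, at 4.81 against 49.0 and at 0.771 against 13.5. S100a6, a calcium-binding protein, stood at 24.3 against 115 and at 4.89 against 18.1. Postn and Loxl2 did not follow, with 396 against 390 CPM and 142 against 138 in p16-LRTD, and 203 against 210 and 104 against 106 in p16-Alb-LRTD.

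The collagen difference lay mainly in the upper tail of the other cells. The median Col1a1 per 10000 UMIs was 4.19 in score-high and 3.59 in other cells of p16-LRTD, and 1.66 and 1.97 in p16-Alb-LRTD. The value exceeded by the top 10% of cells was 22.2 among score-high and 50.6 among other cells of p16-LRTD, and 6.68 and 12.5 in p16-Alb-LRTD. For Col3a1 the medians were 16.4 and 15.6 in p16-LRTD and 9.27 and 9.71 in p16-Alb-LRTD, with upper values of 61.5 and 101 and of 19.8 and 25.6. Collagen-rich cells were thus fewer among the score-high cells, while the medians were close.

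Lists tied to the functions of the rule genes had few called members, all of them lower. Among 13 lectin pathway and complement genes tested besides Fcna, 1 was lower and 0 higher in each library (3.27% and 3.07% of all genes were lower), with medians of 0.08 and -0.0033. Colec11, a soluble collectin, stood at 3515 against 3144 CPM and at 2923 against 2650.5, and its protease Masp1 at 1653 against 1320 and at 1415 against 1268. The list's lower gene was C3, the central complement component, at 6.05 against 33.3 and at 7.03 against 24.0. Among 12 lipid droplet genes tested besides G0s2, 3 were lower in each library (beside 3.27% and 3.07% of all genes), namely the fatty acid transporter Cd36 and the binding proteins Fabp4 and Fabp5. The lipid droplet coat gene Plin2 stood at 367 against 338 CPM and at 285.0 against 260. Among 19 genes of the TGF-beta pathway tested besides Tgfbi, 2 and 1 were lower (against the same shares) and 0 higher, with medians of -0.06 and -0.08. Tgfb2, a ligand, was lower in both (24.8 against 62.3 and 19.97 against 39.6 CPM), while Tgfb1 stood at 66.2 against 63.5 and at 74.7 against 73.6. The pseudoreceptor Bambi, which blocks TGF-beta signals, stood at 369 against 269 and at 344 against 268.

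Most other lists had medians within 0.2 of 0. Retinoid genes had medians of 0.10 and -0.04 over 10 tested, PPAR targets -0.06 and -0.13 over 12 (4 and 3 of them lower, beside 3.27% and 3.07% of all genes), interferon genes 0.02 and 0.04 over 25, glucocorticoid targets -0.01 and -0.05 over 15, immediate early genes 0.07 and 0.13 over 19, p53 targets 0.03 and -0.08 over 12, metallothionein and Nrf2 genes 0.15 and 0.02 over 11, and antigen presentation genes 0.11 and 0.13 over 7. Hypoxia and glycolysis genes had medians of 0.15 and 0.18 over 15, of which 11 and 12 had ratios above 0. Only Adm passed 1.5-fold (0.386% and 0.129% of all genes were higher). Ldha, lactate dehydrogenase, stood at 218 against 179 CPM and at 176 against 152. Chemokine and NF-kappaB genes had medians of -0.06 and -0.24 over 15. Of these, 1 and 1 were higher (beside 0.386% and 0.129% of all genes) and 1 and 2 lower (beside 3.27% and 3.07%). Ccl2 was lower in both libraries (153 against 258 and 152 against 347 CPM). Cxcl14 stood at 150.0 against 104 and at 178 against 110, with log2 ratios of 0.53 and 0.69. Basement membrane genes had medians of -0.17 and -0.16 over 10. Proliferation genes stood apart in p16-LRTD. Of 9 tested, 6 and 4 were lower (beside 3.27% and 3.07% of all genes), with medians of -1.03 and -0.18 and with Top2a, a topoisomerase of dividing cells, at 8.09 against 27.1 CPM and at 0.600 against 3.48. Only 5 of the 9 reached 20 CPM in score-high cells of either library. Top2a passed it only in the other cells of p16-LRTD, and had 7 UMIs in score-high cells of p16-Alb-LRTD.

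Rspo3, a Wnt amplifier made by pericentral stellate cells, stood at 850.4 against 569 CPM and at 885 against 699, whereas Loxl1, also on the pericentral list, stood at 58.6 against 87.8 and at 23.5 against 40.3. Of the 5 pericentral genes, 4 and 2 had ratios above 0, with 0 and 1 past 1.5-fold lower (3.27% and 3.07% of all genes) and medians of 0.32 and -0.03. Of the 5 periportal genes, 0 had a ratio above 0 in p16-LRTD and 1 in p16-Alb-LRTD, with 0 and 1 past 1.5-fold lower (against the same shares) and medians of -0.35 and -0.33. The exception was Igfbp3, which stood at 1340 against 1437 and at 1352 against 1199.

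The score-high cells overlapped unevenly with other expression ranges taken in the same way, as the top 10% by another score, for which 10% would fall in both at no relation. With the Galnt14, Hhip and Cdh18 range they shared 178 cells in p16-LRTD (22.0% of each set, 19.2 to 25.0) and 113 in p16-Alb-LRTD (16.5%, 13.8 to 19.5). Hhip, which helps to define that range, is also among the 7 higher genes. With Grid1, Inmt and Sdk2 they shared 11.1% (9.04 to 13.5) and 6.73% (4.97 to 8.88). With Alcam and Svep1 they shared 1.11% and 0.439%, and with Notch3 and Clstn2 0.247% and 1.17%. Svep1, Notch3 and Clstn2 were also among the genes lower in score-high cells, so these small overlaps and their lower levels are the same measurement.

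Between genotypes, score-high cells differed much as the other stellate cells did. Of 6654 genes with at least 20 CPM in score-high cells of either library, 220 (3.31%) were at least 1.5-fold higher in p16-Alb-LRTD and 128 (1.92%) lower, and 173 of the 220 and 74 of the 128 were past the same fold in the same direction in the other cells. The median over all tested genes was -0.05 in score-high and -0.04 in other cells. The 2 sets of cells come from the same pair of libraries, so the second comparison does not repeat the first independently. Score-high cells began at a score of 2.20 in p16-LRTD and 2.44 in p16-Alb-LRTD, so their genotype ratios also compare different parts of the score range.

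Glucocorticoid targets and interferon genes made up part of the higher genes. Zbtb16, a zinc finger factor induced by glucocorticoids, stood at 50.1 CPM in score-high cells of p16-LRTD and 515 in those of p16-Alb-LRTD, with a log2 ratio of 3.36 (3.25 to 3.48) beside 3.46 in the other cells. Fkbp5, a glucocorticoid-induced chaperone, stood at 51.9 and 208 CPM, a ratio of 2.004 beside 1.957. Beside 3.31% of all genes higher and 1.92% lower, 9 of 15 glucocorticoid targets were higher and 0 lower, with a median of 0.88, and 18 of 25 interferon genes were higher and 1 lower, with a median of 0.93. Ly6a, a surface protein induced by interferon, stood at 71.3 and 407 CPM. Immediate early genes had a median of 0.72, with 13 of 19 higher, against the same 3.31%. Angptl4, an inhibitor of lipoprotein lipase, stood at 13.6 and 79.5 CPM, Tmem100, a BMP-induced membrane protein, at 38.5 and 188, and the nuclear receptor Nr4a3 at 14.1 and 49.3.

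Activation genes were lower in the score-high cells of p16-Alb-LRTD, with 9 of 18 lower and 1 higher (1.92% and 3.31% of all genes) and a median of -0.62, beside -0.85 in the other cells. Col1a1 had a log2 ratio of -1.65 (-1.71 to -1.60) in score-high and -1.99 in other cells, and S100a6 -2.31 and -2.66. Serpina3n, a secreted protease inhibitor, had the lowest ratio of the tested genes, at 25.1 CPM in p16-LRTD and 1.37 in p16-Alb-LRTD, or -4.19 on the log2 scale (-5.01 to -3.47). Serpina3g, from the same gene cluster, went the other way, at 4.59 and 23.7 CPM. The members of this family are similar in sequence, and reads of near-identical copies may be split between them. Adgrl3, an adhesion receptor, Fam84a, Adam19, a membrane protease, and Stmn1, a microtubule-binding protein of dividing cells, had ratios of -2.005, -1.69, -1.59 and -1.68.

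**Figure D5:**
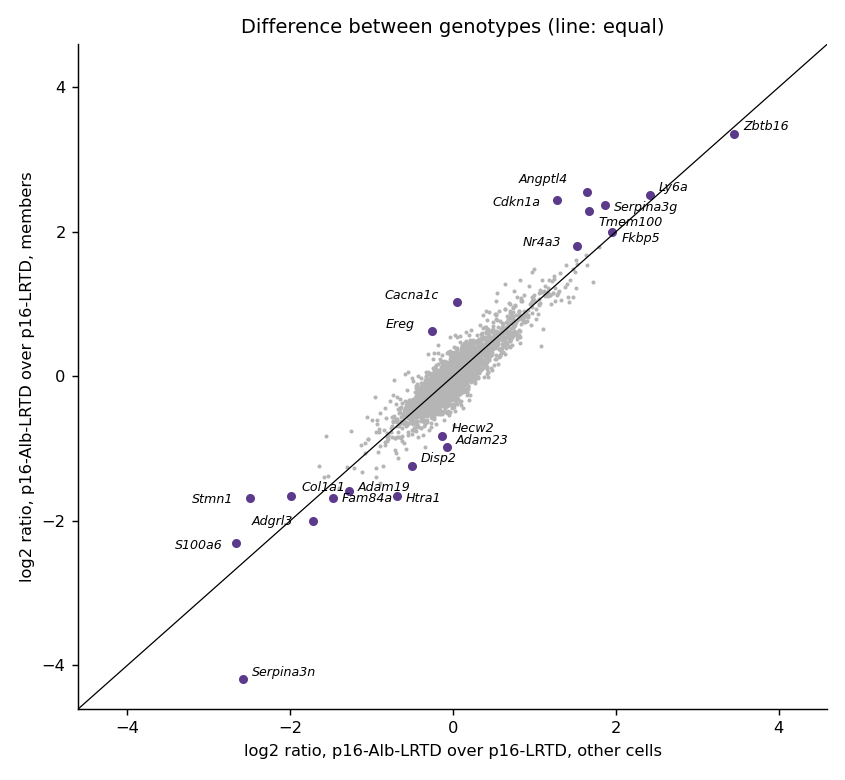
Log2 ratio of summed CPM, p16-Alb-LRTD over p16-LRTD, in the other stellate cells (x axis) and in score-high cells (y axis) for genes with at least 20 CPM in score-high cells, with the line of equal ratios and the named genes in purple. Most genes lie along the line, from Zbtb16 (3.46 and 3.36) to S100a6 (-2.66 and -2.31), while Serpina3n, Htra1 and Adam23 lie below it and Cdkn1a, Angptl4 and Cacna1c above it.

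For 23 of the 6654 genes tested between genotypes, the genotype ratio in score-high cells differed from that in the other cells by more than 1.5-fold. The counting intervals of these differences left out 0. Cdkn1a, the p21 inhibitor of the cell cycle, stood at 6.85 CPM in score-high and 18.1 in other cells of p16-LRTD, and at 37.1 and 43.9 in p16-Alb-LRTD, so that its ratios differed by 1.16 on the log2 scale (0.83 to 1.49). Angptl4 differed by 0.90 (0.66 to 1.13), the calcium channel gene Cacna1c by 0.98 (0.75 to 1.20), and the EGF receptor ligand Ereg by 0.87 (0.70 to 1.05), each lowest in score-high cells of p16-LRTD. Stmn1 differed by 0.81 (0.46 to 1.16) and was lowest in score-high cells of p16-Alb-LRTD. In the opposite direction, Htra1, a secreted protease that acts on TGF-beta and matrix, stood at 97.7 against 157 CPM in p16-LRTD and at 30.9 against 97.7 in p16-Alb-LRTD, a difference of -0.97 (-1.14 to -0.80). Adam23, Disp2 and Hecw2 differed by -0.91, -0.74 and -0.69. The largest difference of this direction among the named genes was that of Serpina3n, at -1.61 (-2.35 to -0.88). Its genotype ratios were -4.19 in score-high and -2.58 in other cells, with 16 UMIs in score-high cells of p16-Alb-LRTD. These intervals hold for counts of 1 library each and do not cover the spread between animals.

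The rule genes themselves were higher in p16-Alb-LRTD when all gated cells were taken, a comparison the choice within each library did not fix. Fcna stood at 842 CPM in p16-LRTD and 1406 in p16-Alb-LRTD, giving a log2 ratio of 0.74 (0.73 to 0.75), Tgfbi at 1292 and 1719 (0.41), G0s2 at 636 and 754 (0.25) and Qpct at 93.3 and 103 (0.14). Of the 7 genes that went with them, Lcn8 differed most, at 31.5 and 64.5 CPM (1.03, 0.98 to 1.08), followed by Adm at 99.6 and 161 (0.69), Nrtn at 15.7 and 22.6 (0.52) and Hhip at 114 and 146 (0.35). Apoc1, Shisa2 and Bmyc stood at 221 and 230, 40.5 and 39.2, and 298 and 288 CPM, with ratios of 0.06, -0.05 and -0.05. Cdkn2a, which encodes p16, was at 4.66 and 4.71 CPM in score-high cells and 6.54 and 4.70 in the others, and tdTomato at 4.30 and 6.69 against 2.95 and 5.71.

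Depth and mitochondrial share differed little between the groups. The libraries held 193746596 UMIs in 11149 barcodes and 162219167 in 8806. Score-high cells had a median of 16429 and 16719 UMIs against 17328 and 18580 in the others, and mitochondrial medians of 2.56% and 2.14% against 2.47% and 2.15%. Of 95 barcodes found in both libraries, 19 passed the gate in each, and 3 and 0 of them were score-high. Leaving them out gave 7 higher and 156 lower genes.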

How the data were processed

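The values deposited by the authors are raw counts of UMIs for each gene in each barcode. They were made from 10x Genomics 3' v3.1 libraries with Cell Ranger 7.0.1 and mm10, per the labels. Everything else was computed here in Python 3.11.15 (numpy 2.4.6, scipy 1.17.1, scikit-learn 1.9.0) with TMM factors from edgeR 4.0.16. The quality limits are those of the study. No doublet caller was run, and doublets were limited only by the upper limits on genes and UMIs. Counts were summed per library and group and scaled to CPM. Intervals for levels, ratios and shares are exact: Poisson for levels, conditional for ratios and Clopper-Pearson for shares, at 95%. Those for a difference between 2 log2 ratios are a normal approximation at 95%. All intervals cover counting error, neither mice nor library preparation, and the ratio intervals were checked on simulated data. With 1 library per genotype there was no test. A gene was called at a ratio of 1.5 and at least 20 CPM.

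The cells, gene lists and comparisons were chosen with earlier results of these data known. Beyond the lists, named genes were the 16 highest and 10 lowest of those called in both libraries by the smaller ratio (only 7 were higher), the 8 largest and 8 smallest genotype ratios in score-high cells, and the 5 largest and 5 smallest differences of that ratio from the other cells, without mitochondrial, ribosomal, haemoglobin, rule, gate, Xist and Y-linked genes. Coordinates are from GENCODE vM21, which matched 31011 of 31054 features by identifier, and sequences from RefSeq. Alternatives covered the share taken, the score, the gate, quality limits, depth, scaling, minimum level, fold and neighbour settings. Values of some list genes are not reported here.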

Additional observations from a re-analysis of the deposited data

Results flagged for a closer look

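Ccl7, a monocyte-attracting chemokine, was called in opposite directions in the 2 libraries. In p16-LRTD it stood at 19.4 CPM in score-high and 12.0 in other cells (log2 ratio 0.69, 0.50 to 0.88), and in p16-Alb-LRTD at 12.3 and 23.9 (-0.96, -1.22 to -0.72). The p16-Alb-LRTD ratio minus that of p16-LRTD was -1.66 (-1.961 to -1.35). With 1 library per genotype the difference was not tested.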

How the results depend on the processing

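No paired analysis was possible because only 1 library stands for each genotype, and no replicate could be left out. The counts, the shares, the ratios of the rule genes and the 7 higher genes, and the medians of the stellate identity, activation, endothelial, smooth muscle and hypoxia lists and of 4 lists between genotypes were recomputed, and none of these changed direction. Other list medians, the overlaps, Ccl7 and the 23 genes whose genotype ratio differed from that in the other cells were not recomputed. Sizes did move: against the cells above the median score the endothelial medians of -2.92 and -4.50 became -0.47 and -0.68, and the smooth muscle medians of -1.67 and -1.48 became -0.54 and -0.47. The 7 genes higher in both libraries became 4 with the score on 5000 thinned UMIs, 0 at a ratio of 2 and 0 when the other cells were limited to those above the median score, an alternative chosen after seeing the data. The 156 lower genes became 254 without the upper limits, 20 against the cells above the median score, 467 at 5 CPM, 69 at 50 CPM and 80 at a ratio of 2. For genotype in score-high cells, the 220 higher genes became 375 at 5 CPM and 80 at a ratio of 2, and the 128 lower ones 371 at 5 CPM, 68 at 50 CPM and 26 at a ratio of 2. The share of score-high neighbours in p16-LRTD moved from 31.1% to 20.8% with the top 5%, 45.1% with the top 20%, 23.8% without Tgfbi in the score, 24.4% with the thinned score and 19.3% with a pooled boundary. In p16-Alb-LRTD it moved from 28.6% to 18.8%, 44.2%, 23.4% (thinned) and 39.2% (pooled). These shares follow in part from how many cells are taken. The share chosen again on the second part of the UMIs moved in p16-LRTD from 48.7% to 41.3% and 62.1% with the top 5% and 20%, to 44.1%, 39.9%, 53.2% and 59.95% without Tgfbi, Fcna, G0s2 and Qpct, to 52.9% (thinned), 52.8% (gate of 30) and 52.7% (no upper limits). In p16-Alb-LRTD it moved from 48.5% to 39.9% and 60.2%, to 38.1% and 58.7% without Fcna and Qpct, to 52.3% (gate of 30), 54.1% (mitochondrial limit of 10%), 52.6% (no upper limits) and 54.6% (without shared barcodes, also added after seeing the data). Repeated random divisions alone spread from 49.7% to 54.1% and from 49.0% to 52.0%. The median-of-ratios scaling moved the median of all genes from -0.04 and -0.06 to 0.06 and 0.05, a change of sign, so list medians this close to 0 have no fixed direction, and the cause of the other shifts was not tested. How far depth limits genes near 20 CPM was not tested.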
